A study of Mus musculus with 2 samples.

Results

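The regions described here are the promoters of long noncoding RNA (lncRNA) genes that stand apart from protein-coding promoters, in chromatin of mouse testis. Members were genes of the GENCODE M21 annotation (build mm10) of 3 annotated types, lincRNA (between genes), antisense and bidirectional promoter lncRNA. A gene was kept where its 5′ end lay over 2000 bp from every protein-coding transcript start, which left 7275 of 9003 genes. Of these, 5401 were lincRNA genes of 5854 annotated, 1873 were antisense genes of 2959, and 1 was a bidirectional promoter lncRNA of 190. The promoter window ran 1000 bp to each side of the 5′ end. The assay was DNase-seq, applied to whole testis of 14-day-old B6CASTF1/J males, an F1 hybrid of C57BL/6J and CAST/EiJ. It comprised 2 libraries, biological replicates 1 and 2 of a single group, with no treatment and no second condition. Replicate 1 was labelled as coming from 3 males, replicate 2 carried no number of animals, and both named the same donor, which means that their spread may be partly technical. With 1 group of 2 libraries and with genes that are not replicates of one another, no difference below was tested. Values are given in each library or as mean ± SD over the 2 libraries.

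DNase I cuts chromatin where nucleosomes are displaced by bound factors, so a hypersensitive peak marks an accessible regulatory element, and a footprint is a short stretch within it that is protected from cutting. LncRNA genes are transcribed by RNA polymerase II like messenger RNA genes, but their promoters are on the whole poorer in CpG dinucleotides and more cell type specific. The testis is known for transcribing more lncRNA genes than most organs, above all in meiotic and later germ cells. At 14 days of age the first wave of germ cells is in meiotic prophase, and Sertoli and Leydig cells make up much of the remaining tissue. In bulk tissue a low value from a few cells with an open promoter and a low value from weak opening in all cells cannot be told apart.

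The authors' longer list comprised 101172 peaks for replicate 1 and 117359 for replicate 2, and a promoter is called open where a peak of both lists overlaps its window. The peak value is the authors' signal column, whose read depth is not stated. All 14 marker genes of germ cells, Sertoli cells and Leydig cells had open promoters, from Dazl at 10.1 and 10.7 (replicates 1 and 2) and Ddx4 at 9.55 and 8.54 to Insl3 at 0.715 and 0.570. Neither the leukocyte marker Ptprc nor the erythroid marker Hbb-bt had a peak at its 5′ end in either library. By the same rule 64% of all protein-coding promoters were open, and each of the last 2 lineages rests on 1 gene.

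The sequences under 6 of the 10 strongest lncRNA promoter peaks are shown first because they carry the contrast between most strong loci, which are rich in GC and footprints, and the single highest one, which holds almost no footprint. Each is the stretch shared by the peaks of both libraries, in the mm10 reference of C57BL/6J, 5′ to 3′ on the strand of the lncRNA. Capitals mark bases that lie in footprints of both libraries. 6720427I07Rik lies at chr13:48546561-48546800 (minus strand), 1700096K18Rik at chr5:25529601-25529840 (plus), Gm10010 at chr6:128200581-128200820 (minus), Tmem250-ps at chr2:26140361-26140600 (minus), Malat1 at chr19:5803561-5803780 (minus) and Gm42418 at chr17:39846781-39846900 (plus).
6720427I07Rik: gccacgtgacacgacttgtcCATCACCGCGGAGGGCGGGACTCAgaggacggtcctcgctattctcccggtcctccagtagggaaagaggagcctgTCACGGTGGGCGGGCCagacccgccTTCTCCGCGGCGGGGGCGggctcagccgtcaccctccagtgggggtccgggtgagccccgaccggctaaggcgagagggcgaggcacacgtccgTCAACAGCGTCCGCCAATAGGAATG
1700096K18Rik: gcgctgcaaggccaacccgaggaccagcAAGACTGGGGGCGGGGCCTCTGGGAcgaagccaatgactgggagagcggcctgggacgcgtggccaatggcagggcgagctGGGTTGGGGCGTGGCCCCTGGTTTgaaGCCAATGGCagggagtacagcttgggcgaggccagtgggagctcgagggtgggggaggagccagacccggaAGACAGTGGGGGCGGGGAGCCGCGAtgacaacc
Gm10010: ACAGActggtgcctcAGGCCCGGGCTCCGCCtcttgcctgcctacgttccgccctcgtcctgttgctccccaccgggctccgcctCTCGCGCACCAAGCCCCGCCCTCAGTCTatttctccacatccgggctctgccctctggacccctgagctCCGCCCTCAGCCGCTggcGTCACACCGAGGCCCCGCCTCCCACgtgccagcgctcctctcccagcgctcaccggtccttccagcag
Tmem250-ps: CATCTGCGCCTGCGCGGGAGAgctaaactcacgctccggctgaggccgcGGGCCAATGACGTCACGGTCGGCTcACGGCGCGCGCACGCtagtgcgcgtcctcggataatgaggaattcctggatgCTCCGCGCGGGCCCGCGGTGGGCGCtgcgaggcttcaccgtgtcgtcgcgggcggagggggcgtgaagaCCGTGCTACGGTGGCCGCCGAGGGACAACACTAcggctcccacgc
Malat1: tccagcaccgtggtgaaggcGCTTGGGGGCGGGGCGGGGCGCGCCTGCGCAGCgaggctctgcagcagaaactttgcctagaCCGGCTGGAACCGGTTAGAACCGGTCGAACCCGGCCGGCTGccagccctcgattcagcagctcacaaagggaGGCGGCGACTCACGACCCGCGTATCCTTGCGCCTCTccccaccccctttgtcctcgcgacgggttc
Gm42418: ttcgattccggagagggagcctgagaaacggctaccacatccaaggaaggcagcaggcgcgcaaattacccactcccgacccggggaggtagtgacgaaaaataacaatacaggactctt
Footprints of both libraries covered 83 of the 240 bases of 6720427I07Rik, 83 of 240 at 1700096K18Rik, 89 of 240 at Gm10010, 118 of 240 at Tmem250-ps and 110 of 220 at Malat1, but 0 of 120 at Gm42418. The SP and KLF consensus GGGCGGG, searched on both strands, stood at bases 33, 104 and 135 of the 6720427I07Rik stretch, at 37 and 217 of 1700096K18Rik, at 100 of Gm10010 and at 27 and 32 of Malat1. All of these matches lay wholly in capitals except that at 135 of 6720427I07Rik, of which 5 of 7 bases did. At strong loci not printed, the match at 16 of Gm20732 had 0 of 7 bases in footprints of both libraries. Those at 134 and 261 of Gm15287 had all 7. The cyclic AMP response consensus TGACGTCA stood at base 57 of Tmem250-ps, all 8 bases in capitals, overlapping a CCAAT at base 53. The CTCF consensus CCANNAGGG at 75 of 6720427I07Rik and CCAAT at 59 and 92 of 1700096K18Rik had 0 bases in capitals. CCAAT at 229 of 6720427I07Rik and at 138 of 1700096K18Rik lay wholly in capitals. Such a match describes letters and does not show which factor was bound.

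Most of these lncRNA promoters had no peak. A peak was listed in both libraries at 1301 of 7275 (17.9%), in replicate 1 alone at 156, in replicate 2 alone at 274 and in neither at 5544. Of the 21938 protein-coding 5′ ends, measured in the same way, 64% were open. Per library the lncRNA share was 20.03% and 21.65% (20.8% ± 1.15, SD, n = 2) and the protein-coding share 65.6% and 65.9% (65.7% ± 0.187). The gap between the classes thus exceeded the spread between the libraries many times over. Against protein-coding genes lying over 2000 bp from the starts of other protein-coding genes, of which 59.6% of 18769 were open, the gap was somewhat smaller. Of the 1728 lncRNA genes that the distance rule left out, 1315 (76.1%) were open, and since their windows lie close to protein-coding starts, the accessibility of the neighbours cannot be told apart there.

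The Y chromosome bears on these shares. It held 549 of the members and 0 of them were open, with a peak in replicate 1 alone at 1. Of the 183 protein-coding genes of Y, 3.83% were open. The Y carries many near-identical gene copies. The sources used here do not say how reads from such copies were placed, and the part of this in the absent peaks was not tested. Without Y, 1301 of 6726 lncRNA promoters (19.3%) were open, beside 64.5% of 21755 protein-coding ones, and the comparisons by class below leave Y out unless stated.

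Open lncRNA promoters also had low values. The median of the highest peak value was 0.683 in replicate 1 and 0.702 in replicate 2 (0.692 ± 0.0137, SD, n = 2), against 4.08 and 3.71 (3.89 ± 0.261) at open protein-coding promoters. The middle 50% of open lncRNA promoters ran from 0.425 to 1.34 in replicate 1 and from 0.430 to 1.30 in replicate 2. By the mean of both libraries, 436 (33.5%) were below 0.5, 411 (31.6%) from 0.5 to 1, 261 (20.1%) from 1 to 2, 145 (11.1%) from 2 to 5 and 48 (3.69%) at 5 or more. Of the open protein-coding promoters 42.6% were at 5 or more and 8.81% below 0.5. The protein-coding median was reached by 70 open lncRNA promoters (5.38%). The libraries ranked them on a like scale: replicate 2 over replicate 1 gave a median log2 ratio of 0.01, the middle 50% ran from −0.22 to 0.24, and 3 of 1301 differed by more than 2-fold. Promoters with a peak in a single library were weak, with medians of 0.317 (replicate 1 alone) and 0.310 (replicate 2 alone); the highest were Gm26592 at 0.624 in replicate 1 and Lncenc1 at 1.14 in replicate 2.

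The classes differed in CpG content, and part of the gap went with it. The ratio of observed to expected CpG over the promoter window had a median of 0.205 over all lncRNA members and 0.474 over protein-coding genes, and 0.306 and 0.608 over the open ones. In windows below a ratio of 0.2 the shares were close, 7.71% of 3024 lncRNA and 6.85% of 5053 protein-coding promoters. From 0.2 to 0.4 they were 23.0% of 3156 and 42.9% of 4286, from 0.4 to 0.6 55.7% of 420 and 92.1% of 4978, and from 0.6 up 85.7% of 126 and 97.6% of 7438. Both classes thus rose with CpG, and the libraries gave the same order in each class: below 0.2 the lncRNA share was 9.46% and 11.1%, the protein-coding share 8.07% and 9.08%, and in the other classes the lncRNA share was the lower one. Medians of open promoters were lower for lncRNA in all 4 CpG classes, from 0.484 and 0.510 against 0.575 and 0.585 below 0.2 to 2.68 and 2.59 against 6.66 and 5.97 from 0.6 up. The start base was masked as a repeat in 26.7% of all lncRNA members and 9.80% of all protein-coding genes, Y included, and without Y in 21.0% and 9.16%. Open shares were 10.97% of 1413 lncRNA members with a masked start and 21.6% of 5313 without, beside 50.9% and 65.9% of protein-coding genes.

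**Figure D1:**
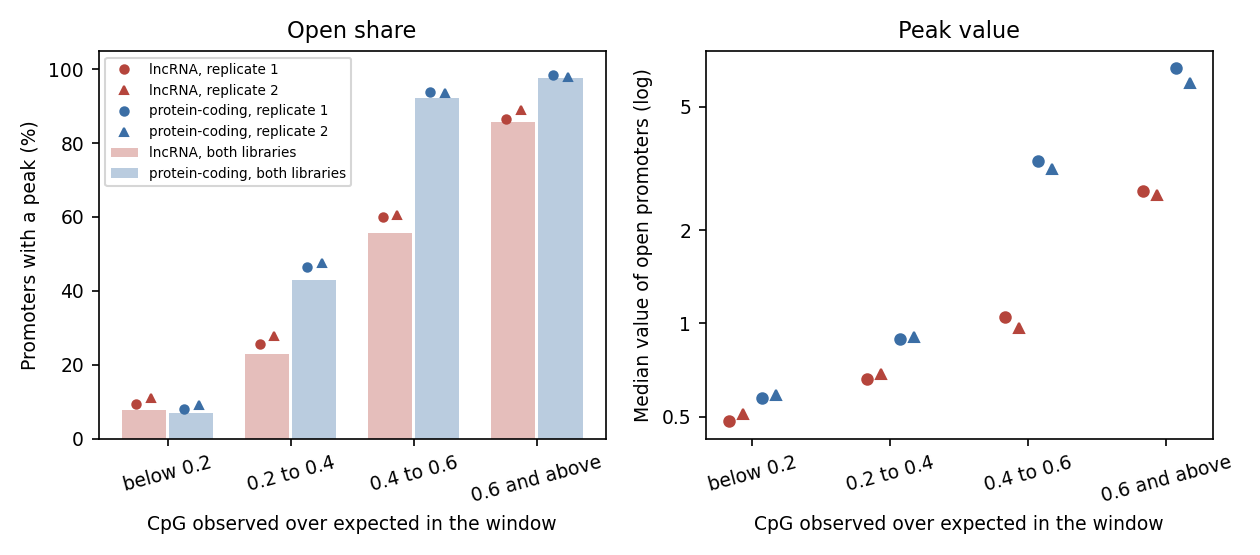
Left, the share of promoters with a peak (%) by ratio of observed to expected CpG, autosomes and X, with bars for peaks in both libraries and points for each library; right, the median peak value of open promoters on a log axis, by library. The lncRNA and protein-coding shares are 7.71% and 6.85% in the lowest class and 55.7% and 92.1% from 0.4 to 0.6.

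Peaks were gathered at lncRNA starts, though less tightly than at protein-coding ones. In bins of 2000 bp, 19.3% of the bins at the start held a peak of both libraries, beside 7.78% to 10.2% (median 8.73%) in the 20 bins up to 20 kb away. At protein-coding starts the value was 64.5% beside 8.90% to 18.2% (median 9.52%). The bins next to the start differed, with 8.68% upstream and 10.2% downstream for lncRNA genes and 13.1% and 18.2% for protein-coding genes. Flanking bins of lncRNA genes may hold protein-coding transcript starts of GENCODE, which the distance rule kept out of the bins at the start. Protein-coding starts listed by RefSeq alone were not kept out. Among flanking bins centred over 2000 bp from protein-coding starts, 5.98% to 9.45% (median 7.25%) held a peak of both libraries. The highest peak covered the start base itself at 33.7% and 35.4% of open lncRNA promoters and at 64.7% and 63.2% of open protein-coding ones. Its midpoint lay within 250 bp of the start at 51.0% and 51.8%, against 76.8% and 76.2%. It lay upstream at 59.3% and 60.1%, against 59.6% and 60.4%, with a median offset of −42.5 bp in both libraries. Promoters and other regulatory elements within the window cannot be told apart here.

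**Figure D2:**
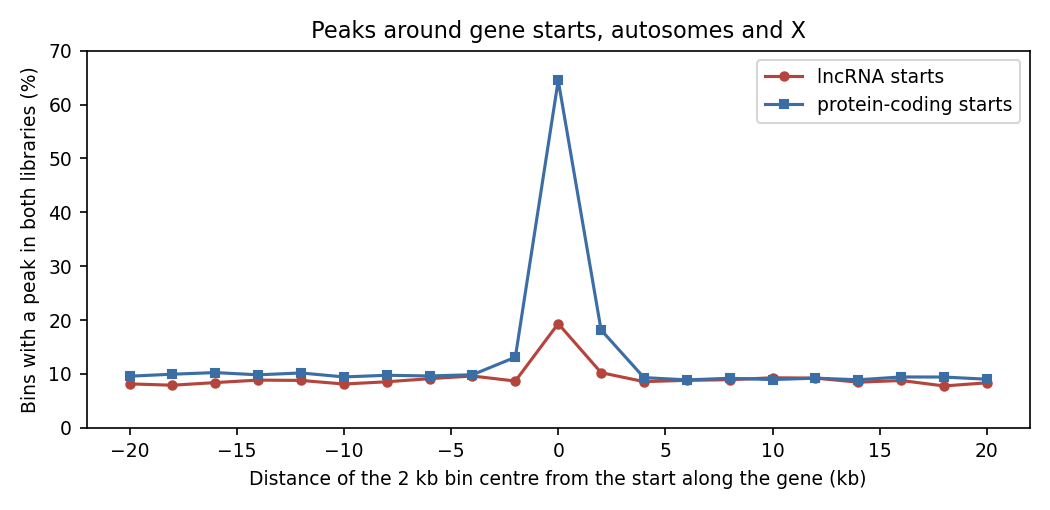
Share of 2 kb bins that hold a peak of both libraries (%), by distance from the gene start along the gene (kb), autosomes and X. The lncRNA line rises to 19.3% at the start from flanks of 7.78% to 10.2%, and the protein-coding line to 64.5%.

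By annotated type, 959 of 4853 lincRNA genes (19.8%) and 341 of 1872 antisense genes (18.2%) were open, with medians of 0.667 and 0.680 and of 0.715 and 0.808. The 1 bidirectional promoter lncRNA kept, Gm48814, was open at 0.522 and 0.6002. Starts on the opposite strand inside a protein-coding gene were open at 17.5% of 1621, starts outside at 19.9% of 5025, and starts inside on the same strand at 21.25% of 80. Distance to the nearest protein-coding start went with larger differences: 26.1% of 468 were open at 2 to 5 kb, 22.8% of 1420 at 5 to 20 kb, 20.8% of 2643 at 20 to 100 kb and 13.9% of 2195 beyond. The medians were 0.906 and 0.930 in the nearest class and 0.441 and 0.449 in the farthest, and the median CpG ratio moved the same way, from 0.225 to 0.194. Genes of 1 exon were open at 16.6% of 320, with medians of 1.41 and 1.30, and those of more exons at 19.5% of 6406, with 0.672 and 0.698. Members with another member within 1000 bp in head-to-head orientation were open at 28.6% of 126, the rest at 19.2% of 6600.

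Members named after testis clones were open less often than those named after other RIKEN clones. RIKEN names, given to mouse complementary DNA clones, carry a prefix for the library, and 716 members bore prefixes of adult testis libraries. Of these, 139 (19.4%) were open, beside 29.5% of 535 members with other RIKEN names, 17.5% of 4687 predicted genes named Gm and 23.4% of 788 with other names. The medians were 0.710 and 0.732 for the testis names, 0.696 and 0.738 for the other RIKEN names, 0.645 and 0.672 for Gm names and 0.801 and 0.821 for the rest. In each CpG class the testis names were below the other RIKEN names, at 8.57% against 12.2%, 24.8% against 28.4%, 68.8% against 73.9% and 75% against 89.3%, where the last class held 8 and 28 genes. Gm names had 7.52%, 21.4%, 48.7% and 86.6% in the same classes, below the testis names in all but the last, and other names 5.16%, 26.9%, 65.2% and 82.6%.

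On the X chromosome, which is silenced in meiotic prophase of male germ cells, 23 of 120 members (19.2%) were open, the same share as the 19.3% of 6606 on autosomes. Their medians were lower, 0.505 and 0.393 against 0.688 and 0.706. Protein-coding promoters of X were open at 56.0% of 948 with medians of 1.41 and 1.42, against 64.9% and 4.27 and 3.88 on autosomes. The strongest on X was Gm15247, an antisense gene within Mid1, at 4.48 and 2.85, values that come from different peaks in the libraries. Gm15138 followed at 2.15 and 2.26, with a RefSeq protein-coding start of Wnk3 in its window, and 9530027J09Rik at 1.63 and 1.86. Gm15205 had 1.39 and 2.06, with a RefSeq start of Scml1 in its window, and Gm15726, also within Mid1, 1.30 and 1.41. In all, 134 members had a RefSeq protein-coding 5′ end within 2000 bp, where GENCODE listed no protein-coding transcript start, and 59 of them were open. Of the remaining 7141 members 17.4% were open.

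The 20 strongest promoters had mean values far above the lncRNA median, and 14 of them had a CpG ratio of 0.6 or more. By type 16 were lincRNA genes and 4 antisense genes, and 5 bore testis clone names. The peak covered the start base in both libraries at 10 of them. The highest, Gm42418 (start chr17:39846958, plus strand), had 40.5 and 26.5, the widest gap between libraries in this set, and 0 and 1 footprints. Its window holds the RefSeq pseudogene Rn18s-rs5 of ribosomal RNA, a gene present in the genome in many copies, and the part of reads from other copies in its value was not tested. Next came 6720427I07Rik (chr13:48546500, minus) at 23.2 and 23.2, with the midpoint of its peak at −170.5 and −180.5 bp from the start, upstream of it, and 4 footprints in each library. 1700096K18Rik (chr5:25530013, plus), a 1-exon testis clone gene, had 20.7 and 21.7 and 5 footprints in each. All 3 lay over 10 kb from the nearest protein-coding start.

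Gm10010 (chr6:128200623, minus) had 18.6 and 17.6 with its start inside the peak. Tmem250-ps (chr2:26140521, minus) had 18.5 and 16.2; RefSeq annotates it as protein-coding. 1700113A16Rik (chr3:88177785, minus), an antisense gene, had 14.3 and 19.7, higher in replicate 2. Gm20732 (chr15:68363176, minus) had 16.8 and 16.7, and Gm15287 (chr13:111725517, plus) 14.2 and 14.3, so that in both the libraries differed by less than 0.2. 4932412D23Rik (chr16:42875762, minus), with 14.1 and 17.1 and the high number of 12 and 10 footprints, lies by the start of a noncoding transcript of Zbtb20, a zinc finger repressor gene. The other strong loci were Gm33195, Gm31812, Gm2885, Gm6410, Gm26901 and the testis clones 1700020I14Rik and 1700001L05Rik, between 9.58 and 14.3 in either library. RefSeq calls 1700020I14Rik Oip5os1, also known as Cyrano, a conserved lncRNA that promotes decay of a microRNA, and its values were 12.7 and 10.6. Gm12758 and Gm12762 (chr7:34234377, plus, and chr7:34234102, minus) run head to head and share 1 peak of 11.02 and 11.07, so they count as 1 observation. Among antisense genes the next highest, Gm26670 on chromosome 1, had 8.14 and 7.82.

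**Figure D3:**
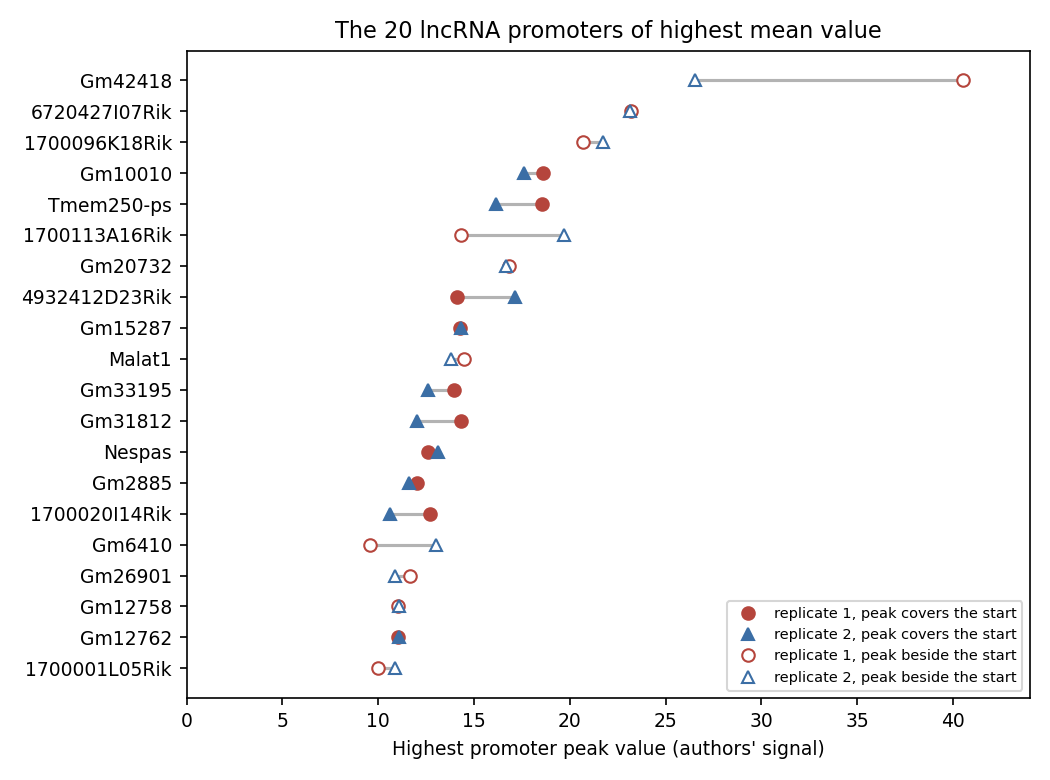
Highest promoter peak value (the authors' signal, linear axis) of the 20 strongest lncRNA promoters in replicate 1 (circles) and replicate 2 (triangles), filled where the peak covers the start base and open where it lies beside it. Gm42418 stands apart at 40.5 and 26.5, and the others lie between 9.58 and 23.2.

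Well-known lncRNA genes are taken by role, from lists of symbols. Of the imprinted list 6 genes were members and 5 were open. Nespas, an antisense transcript of the imprinted Gnas locus, had 12.6 and 13.1, and Kcnq1ot1, the paternal antisense RNA that silences its neighbours, 4.80 and 5.17. Airn, which silences Igf2r on the paternal allele, had 1.04 and 1.03. The maternally expressed H19 and Meg3 had 0.591 and 0.544 and 0.532 and 0.491, and Mirg had no peak. The order of the first 3 was the same in both libraries, with gaps far wider than the difference between libraries, while H19 and Meg3 lay within 0.1 of each other. With a window of 2000 bp each side the mean of Meg3 was 3.03 in place of 0.511, and of the shorter lists only that of replicate 2 held its peak. The peaks do not separate the parental alleles.

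Of 4 genes of the X-inactivation list 3 were open, all below 0.7. Jpx, an activator of Xist, had 0.667 and 0.506, from different peaks in the libraries, and Ftx 0.538 and 0.415. With a window of 2000 bp each side the mean of Ftx was 4.93 in place of 0.476. Xist, the RNA that coats the inactive X in females, had 0.280 and 0.340, from a peak centred at −1022 and −1006.5 bp from the start, and its antisense partner Tsix had none. Xist had no peak in the shorter list or within 500 bp of its start. Sex-chromosome inactivation in male meiosis does not need Xist.

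Of 7 broadly expressed lncRNA genes 6 were open. Malat1, an abundant RNA of nuclear speckles (chr19:5802672, minus), had 14.5 and 13.8, from a peak whose midpoint was at −998.5 bp in both libraries. With a window of 500 bp each side its mean value was 4.87 in place of 14.15. Kcnq1ot1, given above, is on this list too. Neat1, the scaffold of paraspeckles, had 3.62 and 3.43, and 2900097C17Rik, known as Norad, which binds Pumilio proteins, 2.74 and 2.67. Lncpint had 1.06 and 0.853 and Pvt1, which lies next to Myc, 0.484 and 0.393, while Miat had no peak. All 3 hosts of small nucleolar RNAs were open, Snhg6 at 6.56 and 5.75, Snhg12 at 5.12 and 5.29 and Snhg20 at 2.87 and 3.35. The peak of Snhg20 lay 742.5 and 762.5 bp downstream, and within 500 bp of its start there was none. These hosts were above the lncRNA median by more than 4-fold, as were Malat1, Kcnq1ot1 and Neat1.

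Of 8 microRNA host genes 6 were open. Mir17hg, host of a growth-promoting microRNA cluster, had 3.78 and 3.10. Mir142hg, whose microRNA is typical of blood cells, had 0.876 and 0.985, Mir9-3hg 1.01 and 0.630, Mir155hg 0.602 and 0.532, Mir670hg 0.586 and 0.521 and Mir124a-1hg 0.349 and 0.381. Mir124-2hg and Mir133a-1hg had none. Apart from Mir17hg all of them were below 1.1. Mir155hg and Mir670hg lay within 0.1 of each other in both libraries. With a window of 2000 bp each side the mean of Mir670hg was 2.02 in place of 0.554, and Mir124a-1hg had no peak in the shorter list. The immune list holds Mir142hg and Mir155hg as well; of its 6 members Trp53cor1, a p53 target beside Cdkn1a, had 0.747 and 0.702 from different peaks in the libraries, Ptgs2os2 had a peak of 0.194 in replicate 1 alone, and Gm14005 and Mirt1 had none.

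The developmental and Hox list had 5 members and 1 was open, Halr1, at 0.785 and 0.736. Hotair of the Hoxc cluster, Dlx6os1, Nkx2-2os and Rmst had no peak in either library. Another 11 genes of this list lay within 2000 bp of a protein-coding start and are not members, and 8 of these were open. Of 155 members whose symbols name the opposite strand of a gene 35 (22.6%) were open, led by Rab10os at 6.53 and 8.85 (from different peaks in the libraries), Tvp23bos at 4.58 and 4.07 and Epb41l4aos at 4.03 and 3.07. Acss2os and Adap2os were among the 107 with no peak. The lists are short and were gathered from well-known names, so their shares stand beside the 17.9% of all members only as description.

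**Figure D4:**
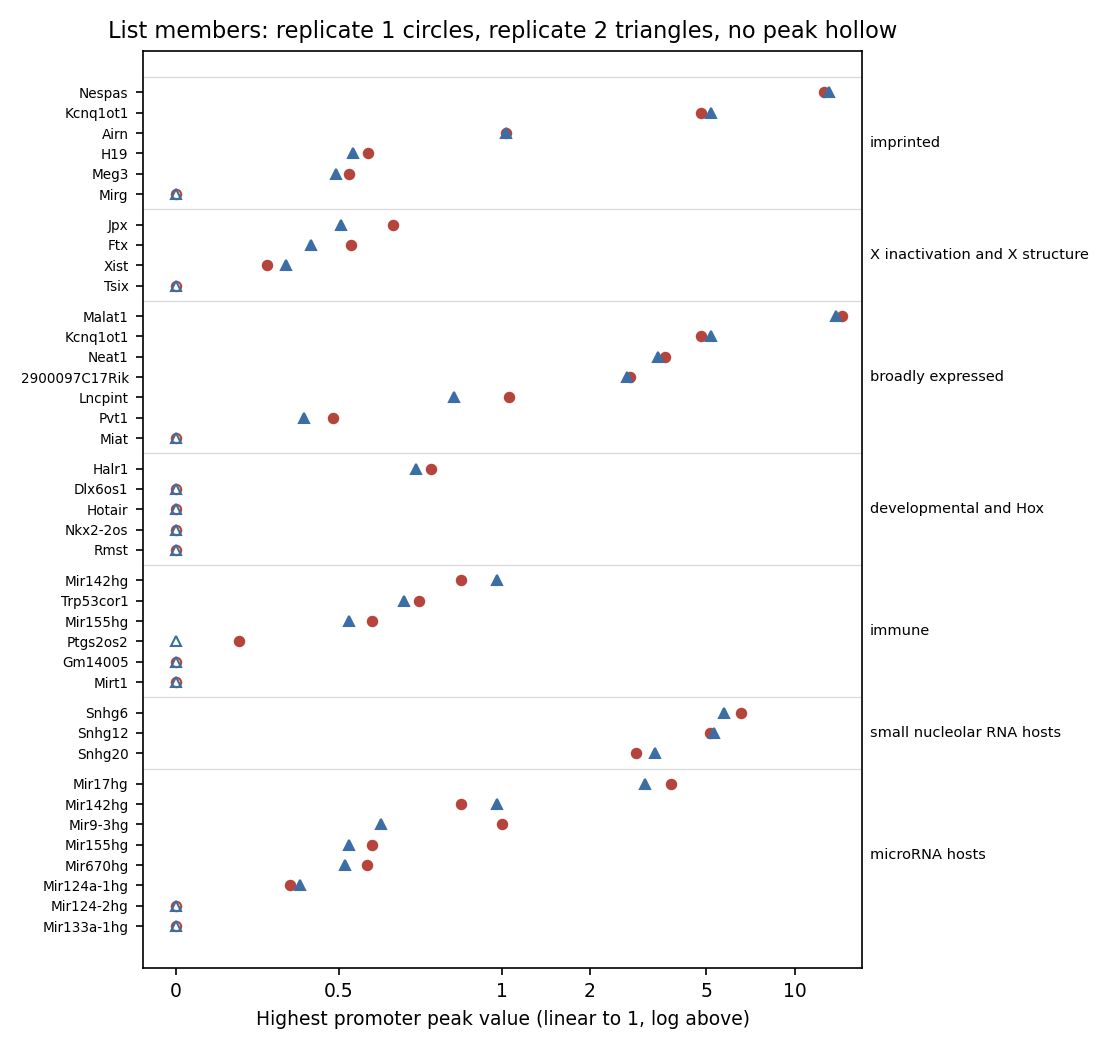
Highest promoter peak value (the authors' signal, linear up to 1 and logarithmic above) of each member of 7 lists in replicate 1 (circles) and replicate 2 (triangles), with hollow symbols at 0 for no peak. Nespas, Malat1 and the small nucleolar RNA hosts lie well above 1, and 4 of 5 developmental genes lie at 0.

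CpG-poor promoters had few strong peaks. Below a ratio of 0.2 the highest were Gm11399 at 3.12 and 3.703, inside Sfi1, and E130018N17Rik with Gm14235, which share 1 peak of 2.92 and 2.86 that covers the start of the first. 1700096J18Rik had 2.41 and 2.38 and 4930478P22Rik 2.78 and 1.90. At these last and at Gm11399 the peak lay 499.5 to 971.5 bp downstream of the start.

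Nearly all open lncRNA promoters held a footprint. In the highest peak, 90.9% (replicate 1) and 96.6% (replicate 2) had 1 or more, a mean of 93.7% ± 4.08 (SD, n = 2), against 97.8% and 98.8% (98.3% ± 0.695) of open protein-coding promoters. The density was 13.04 and 14.84 footprints per kb of peak, against 18.3 and 19.1. Density rose with the peak value in both classes, and at equal value most of the gap was gone. Below a mean value of 0.5 it was 8.45 and 11.2 per kb for lncRNA and 7.95 and 10.5 for protein-coding promoters, and from 1 to 2 it was 15.5 and 17.4 against 16.96 and 17.63. From 5 up it was 19.96 and 20.6 against 22.0 and 22.2, and the difference between classes was then larger than that between libraries.

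**Figure D5:**
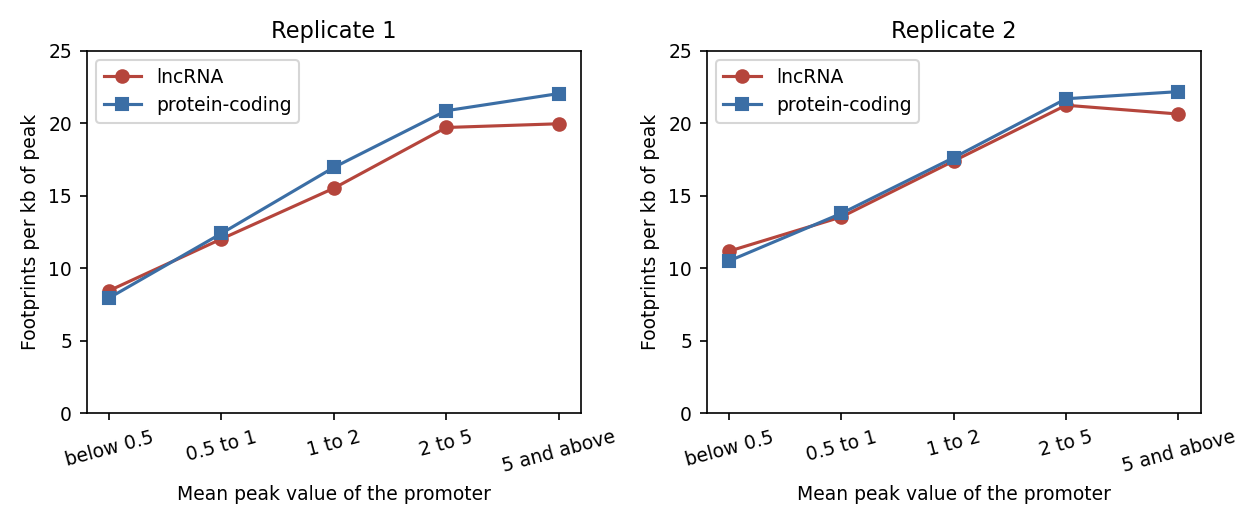
Footprints per kb of the highest promoter peak, by mean peak value of the promoter, in replicate 1 (left) and replicate 2 (right), over open promoters. The lncRNA lines rise from 8.45 and 11.2 below 0.5 to 19.96 and 20.6 from 5 up and stay near the protein-coding lines.

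Of the 5 lncRNA peaks with the most footprints 1 was among the 20 strongest, 4932412D23Rik, given above. Rncr4, a retinal lncRNA, had 13 and 14 footprints at values of 0.801 and 0.793, from a peak centred 827.5 and 947.5 bp downstream of the start. Gm13091 had 11 and 14 at 1.38 and 1.31, AC132455.1 17 and 7 at 1.16 and 1.11, and Gm14964 12 and 12 at 0.866 and 0.732. Malat1, with a value of 14.5 in replicate 1, held 3 in each library. These counts are not scaled by peak width, and all 5 peaks were wider than the median open lncRNA peak of 200 bp. That of Rncr4 ran over chr6:30173001-30174440 and chr6:30173021-30174660, and the narrower one of Malat1 over chr19:5803561-5803780 in both libraries. Gm13091, AC132455.1 and Gm14964 start inside protein-coding genes on the opposite strand, and their windows overlap Rere, Zfp36l2 and Nrxn2 of RefSeq. Gm13091 lay 1044 bp from a transcript start of a protein-coding gene, with its peak centred at −976.5 and −1046.5 bp. AC132455.1 lay 2191 bp from the start of Zfp36l2.

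Short consensus sequences were counted in the 200 bases centred on the highest peak, over 1264 distinct windows of open lncRNA promoters and 12705 of open protein-coding ones, on both strands. The SP and KLF consensus GGGCGGG was in 12.97% and 44.1%, beside 1.90% of 4995 windows of the same length at lncRNA starts without a peak. Below a CpG ratio of 0.4 the shares were 7.60% and 24.3%. The ETS consensus CCGGAAGT was in 2.61% and 6.97%, and the CRE consensus TGACGTCA in 1.42% and 3.15%. The NRF1 consensus GCGCATGCG was in 1.98% and 3.45% and the YY1 consensus AANATGGCG in 1.19% and 4.35%. At lncRNA starts without a peak, ETS was in 0.6406%, CRE in 0.3203%, NRF1 in 0.1001% and YY1 in 0.6607%. With the CpG ratio below 0.4, ETS was in 1.82% and 2.27%, CRE in 0.964% and 1.56% and YY1 in 0.749% and 1.46%. NRF1 was there in 1.499% of lncRNA windows and 1.416% of protein-coding ones, from 14 and 30 windows. Footprints of both libraries overlapped, by 1 bp or more, 78.8% of 33 matches to the NRF1 consensus and 96.7% of 734. For GGGCGGG this held at 46.4% of 239 matches and 63.1% of 9032. The NRF1 matches lay in 25 and 438 windows, and a site that reads as the NRF1 consensus on both strands was counted once on each.

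The CTCF core CCANNAGGG was in 8.31% and 5.17%, beside 3.76% of lncRNA starts without a peak. Footprints of both libraries overlapped 43.9% of its 107 matches and 43.2% of 671. Below a CpG ratio of 0.4 the CTCF shares were 8.89% and 7.60%. The RFX consensus GTTGCCATG, of a factor family active in meiotic and later male germ cells, was in 1.34% and 0.701%, beside 0.961% of lncRNA starts without a peak. Below a CpG ratio of 0.4 its shares were 1.28%, from 12 windows, and 1.37%. Footprints of both libraries overlapped 72.2% of its 18 matches and 74.2% of 93. The DMRT consensus ACANTGT was in 7.52% and 2.01%, but also in 6.05% of lncRNA starts without a peak. Footprints of both libraries overlapped 5.94% of its 101 matches in open lncRNA windows. The short CCAAT of NFY was in 25.2% and 30.9%, beside 26.7% without a peak. Footprints of both libraries covered 9.99% of the bases of all open lncRNA windows and 21.1% of the protein-coding ones. Below a CpG ratio of 0.4 they covered 8.20% and 10.7%, and from 0.4 up 15.01% and 23.1%. These shares of bases are another measure than the shares of matches, which count any overlap of 1 bp or more.

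The libraries differed most, among open members with a mean of 1 or more, at C230024C17Rik (1.28 and 2.34, log2 ratio 0.87) and Gm46204 (0.946 and 1.66, 0.81) on the side of replicate 2, followed by BC043934, Gm17034 and Gm10648. On the side of replicate 1 stood Gm45605 (5.25 and 2.71, −0.96), AC116857.1 (2.31 and 1.24, −0.90), Gm38563 (1.84 and 0.993, −0.89), Gm41414 (4.67 and 2.58, −0.86) and AC154766.4. No other pair of libraries exists against which to set these. The windows of Gm45605 and AC154766.4 each hold the start of a RefSeq transfer RNA gene, whose part in the values was not tested. Near the distance limit, the members just inside were Gm45436 and, at 2017 bp, Gm15690, both with no peak, and Gm15655 at 2018 bp, with 0.538 and 0.634. Just outside were Gm29570 at 1987 bp and AC157910.5 at 1974 bp, with no peak, and Gm16188 at 1975 bp, with 0.753 and 0.887.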

How the data were processed

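DNase-seq libraries of 14-day testis were deposited by the authors as peak lists (longer and shorter), footprints and a false discovery rate track, each made from 1 library alone on mm10, per the deposited text descriptions. For the aligner, the callers and multiply mapping reads, settings were not given in the sources used here. Each deposited peak value is a signal column: values below 1 were whole multiples of 0.00538 (replicate 1) and 0.00377 (replicate 2) within 0.05 steps, but what 1 step counts is not given, so the depth is unknown. A median open lncRNA promoter had 127 and 186 steps. The deposited p-value of footprints is 0.01 in every row, a threshold, so only positions were used.

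GENCODE M21 supplied the genes (autosomes, X and Y), while promoter neighbours and names came from RefSeq. Bases and soft-masked repeats were read from the GRCm38.p6 reference, the build of mm10. Windows, overlaps of 1 bp or more, the highest peak value, footprints in that peak, CpG ratio, repeat masking and consensus matches were computed with Python 3.11.15, numpy 2.4.6 and pandas 2.3.3, and the overlap code was tested on simulated intervals. Peaks that overlap several windows were counted in each. Named genes were the 20 highest means, the 5 highest by type, testis clone name, X and low CpG ratio, the 3 highest and first 2 without a peak per list, the 5 with most footprints, the 5 with the largest library ratios each way and the 3 on each side of the distance limit. All members of the short lists were named as well. Members and lists were chosen with earlier results of these data known. Alternatives are given in the closing section.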

Additional observations from a re-analysis of the deposited data

How the results depend on the processing

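No paired analysis was possible because the libraries form 1 group. The open count of 1301 became 465 with a peak required over the start base and 760 with peaks at or above each library's median value. It was 885 with the shorter peak list, 1041 with windows of 500 bp each side and 1723 with 2000 bp. Leaving out a library gave 1457 to 1575. The gap of 46.11 percentage points became 47.27 with windows of 500 bp each side, 42.96 with 2000 bp, 49.55 over every transcript start, 37 with a peak over the start base, 44.27 with 1 gene per group of starts within 2000 bp and 41.72 against isolated protein-coding genes, and 44.21 to 45.57 without a library. The median value of 0.6925 became 1.007 with the shorter peak list, 1.163 with peaks at or above the median and 0.8266 over the start base, and 0.5813 to 0.6022 without a library, where single-library promoters enter. The footprint share of 93.74% became 97.97% with the shorter list and 99.21% with peaks at or above the median, and 87.85% to 93.02% without a library. Footprints lying fully inside the peak gave 17.22 per kb at protein-coding promoters in place of 18.73. Every one of these alternatives left the lncRNA share below the protein-coding share. Of 46 named genes 15 had no peak over the start base itself, 3 had none in the shorter list and 2 none within 500 bp. Values moved beyond the library spread at 6 with 500 bp and at 6 with 2000 bp windows, among the latter Ftx, Meg3 and Mir670hg. Chosen after seeing the data, leaving out members near noncoding transcripts of protein-coding genes gave 1257 open genes and leaving out those near RefSeq protein-coding starts 1242. With 2 libraries and unknown depth, values near the peak threshold are the least certain.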

Other observations

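Among autosomes the open share of lncRNA promoters was highest on chromosome 17, at 82 of 291 members (28.2%), and lowest on chromosomes 8, at 60 of 421 (14.3%), and 16, at 32 of 221 (14.5%). Of protein-coding promoters 61.9%, 72.2% and 64.3% were open there. In replicate 1 the shares of these chromosomes were 29.9%, 17.1% and 16.7%, and in replicate 2 33.3%, 17.6% and 19.9%, so the order of chromosomes 8 and 16 differed between libraries. The 82 open members of chromosome 17 include Gm42418, Gm2885 and Airn. These chromosomes were picked after their values were seen, and the difference was not tested.

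Genes of annotation level 3, which are annotated automatically, were open at 18% of 150, beside 19.3% of 6503 at level 2 without Y. Their medians were 1.597 and 1.62, above those of all open members. Members of level 1, the verified loci, were open at 21.9% of 73.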
